A study of Mus musculus with 12 samples.

Results

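The comparison described here sets tumours of APC-WT MC38 cells with Dox (3 arrays) against tumours of the same cells without Dox (3 arrays), which are 6 of the 12 arrays of the series. Its members are all 18193 genes with a probe set that names 1 gene symbol, and 11070 of them had a mean level high enough to be tested. MC38 is a mouse colon carcinoma cell line. Every cell line of the series carried an inducible short hairpin against Tdo2 (ishTDO2), also in the groups without Dox, and the other 6 arrays came from APC-KO cells with the same hairpin, with and without Dox (3 arrays each). The cells had been placed in the cecum of C57BL/6 mice, and doxycycline (Dox) was given in the drinking water to switch the hairpin on. The labels do not state the age of the mice, the interval on Dox or whether a line was 1 clone. Nor do they state whether each tumour had its own mouse, so the spread between tumours of a group may be technical. The p-values rest on that spread, pooled over the 4 groups and moderated across genes. No hairpin-free tumours on Dox were analysed here, so Dox and hairpin cannot be told apart.

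Tdo2 encodes tryptophan 2,3-dioxygenase, which starts the breakdown of tryptophan to kynurenine, a ligand of the aryl hydrocarbon receptor. APC is part of the complex that marks beta-catenin for destruction, so its loss switches on Wnt target genes. A growing tumour holds carcinoma cells, fibroblasts, vessels and immune cells, and type I interferon made within it acts through the factor ISGF3 on a shared DNA element of many target genes. The arrays read carcinoma and host RNA as 1 mixture, so fewer cells of a type and less RNA per cell cannot be told apart.

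Values are log2 expression values of Affymetrix probe sets, and a difference is the mean with Dox minus the mean without Dox on that scale, so that 1 unit is a 2-fold change. Each difference carries the standard error (SE) of a limma fit to all 12 arrays, and a gene is said to have risen or fallen only where its p, adjusted over the 11070 genes by the Benjamini-Hochberg method, was under 0.05. For 3 arrays against 3 the smallest p of an exact test is 0.1, and no gene was tested outside that fit. Array medians lay between 5.54 and 5.58. The limit for testing was a mean over all arrays of 5.55, called the floor below.

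One array of the comparison stood apart. Over the tested genes APC-WT no Dox replicate 3 correlated at 0.9919, 0.9961 and 0.9955 with the Dox arrays and at 0.9912 and 0.9926 with no Dox replicates 1 and 2. On the axis of largest variance among the 6 arrays (46.7% of it) the Dox arrays lay at 0.45, 0.278 and 0.305, and the no Dox arrays at -0.647, -0.451 and 0.066. Results are therefore also given without that array where it moves them. The ratio of 3' to 5' signal of the Gapdh control, a sign of RNA integrity, also parted the groups, at -0.188, -0.158 and -0.163 (log2) with Dox and -0.092, -0.116 and -0.115 without, and its part in the results was not tested. Tdo2 itself lay under the floor on all 6 arrays, at 3.94, 3.76 and 3.95 with Dox and 3.81, 3.82 and 4.00 without, a difference of 0.00 ± 0.10, so the array gave no check of the knockdown. Apc was at 8.45, 8.50 and 8.53 with Dox and 8.57, 8.39 and 8.41 without, and the groups overlapped.

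A block of genes that lay lower with Dox belonged to the interferon response, and its DNA element is shown in 3 promoters. They are those of the 3 interferon-stimulated genes of smallest p whose window, from 250 bases before to 50 bases after the RefSeq start, held the element searched for, which is TTTC, any 2 bases and TTTC again, on either strand. Capitals mark the match, and each sequence runs 5′ to 3′ on the gene's own strand in RefSeq GRCm38.p6.
Stat2 promoter, chr10:128270248-128270547, + strand: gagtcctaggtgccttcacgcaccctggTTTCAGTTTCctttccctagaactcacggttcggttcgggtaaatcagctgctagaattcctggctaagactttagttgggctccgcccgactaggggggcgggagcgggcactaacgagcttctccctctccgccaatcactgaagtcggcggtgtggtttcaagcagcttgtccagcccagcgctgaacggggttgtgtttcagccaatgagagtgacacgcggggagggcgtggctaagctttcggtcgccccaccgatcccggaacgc
Irgm1 promoter, chr11:48871371-48871670, - strand: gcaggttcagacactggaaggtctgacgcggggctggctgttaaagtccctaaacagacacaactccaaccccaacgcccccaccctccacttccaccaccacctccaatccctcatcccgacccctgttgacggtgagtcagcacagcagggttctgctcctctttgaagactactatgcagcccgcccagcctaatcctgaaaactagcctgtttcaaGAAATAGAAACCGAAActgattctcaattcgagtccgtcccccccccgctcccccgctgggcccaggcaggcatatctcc
Ifih1 promoter, chr2:62646206-62646505, - strand: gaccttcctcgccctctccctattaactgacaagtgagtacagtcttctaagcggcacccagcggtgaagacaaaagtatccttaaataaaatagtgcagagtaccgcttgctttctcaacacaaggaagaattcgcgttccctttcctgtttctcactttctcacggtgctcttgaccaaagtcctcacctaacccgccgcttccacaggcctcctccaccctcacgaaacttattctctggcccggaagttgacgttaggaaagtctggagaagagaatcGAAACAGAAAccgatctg

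The match of Stat2 began 222 bases before the start. Irgm1 held 2 overlapping matches, which began 30 and 24 bases before its start, and that of Ifih1 began 32 bases after it. The element was found in 14 of the 29 interferon-stimulated genes with a promoter in the table (48.28%), in 3.8% of the 8945 tested genes with a promoter and in 3.44% of all 32851 promoters. A match is a description of the letters and says nothing of binding. The same windows of the 3 genes that passed the test, Ccng2, Ms4a4d and Eif1ad, held neither this element nor the E-box CACGTG, the FOXO site GTAAACA or the sterol element TCACNCCAC.

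Of the 11070 genes, 3 passed the test (0.0271%): Ms4a4d and Ccng2 fell (0.0181%) and Eif1ad rose (0.00903%). At an unadjusted p under 0.05 there were 1716 genes (15.5%), 716 higher (6.47%) and 1000 lower (9.03%), and the groups did not overlap for 2362 genes (21.3%), 1219 higher (11%) and 1143 lower (10.3%). The median difference over all genes was -0.008, and 47% of genes lay above 0 and 53% below. At least 2-fold differences were few, 5 higher and 9 lower.

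Ccng2 encodes cyclin G2, an unconventional cyclin that is induced as cells leave the cycle and is a known target of FOXO factors. It was at 8.59, 8.70 and 8.80 on the Dox arrays and at 9.63, 9.53 and 9.22 on the no Dox arrays. Each Dox tumour lay below each no Dox tumour, and the lowest no Dox value was that of replicate 3. The gene fell by 0.76 ± 0.09 (limma, adjusted p = 0.00893), and a second probe set of Ccng2 gave a difference of -0.46, also without overlap.

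Ms4a4d, a membrane-spanning 4A gene of the cluster on chromosome 19, was at 5.48, 6.08 and 6.12 on the Dox arrays and at 7.74, 7.56 and 7.85 on the no Dox arrays. The gap between the groups was wider than the spread within either, and 1 of the 3 Dox arrays lay under the floor. Ms4a4d fell by 1.82 ± 0.24 (limma, adjusted p = 0.0146). Its mean over all arrays, 5.794, lay over the floor because of the APC-WT no Dox group, whose mean was 7.715. The means were 5.895 in APC-WT Dox, 4.583 in APC-KO Dox and 4.982 in APC-KO no Dox. The group that made the difference thus also brought the gene into the test. The call was kept in a fit with no filter on level. Of the 8 Ms4a genes tested, 2 lay above 0, and the median was -0.12. Its neighbours Ms4a4c, at 8.52, 8.65 and 8.89 with Dox and 9.71, 9.46 and 9.29 without (-0.80 ± 0.19, adjusted p = 0.109), and Ms4a4b (-0.50 ± 0.20) also had separate groups, while Ms4a7, a gene of macrophages, had a difference of 0.21 ± 0.06. The Ms4a4 genes are close paralogs, and reads of 1 by the probe set of another were not tested.

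Eif1ad encodes a nuclear protein with an eIF1A-like domain. Its values were 9.56, 9.51 and 9.51 with Dox and 9.09, 9.11 and 9.21 without, and the gap between the groups was wider than the spread within either. The gene rose by 0.39 ± 0.05 (limma, adjusted p = 0.0146), and its second probe set gave 0.16 without overlap. Each of these 3 calls was lost when replicate 1 or 2 of either APC-WT group was left out. Those of Ms4a4d and Eif1ad were also lost without APC-WT Dox replicate 3. The adjusted p then reached 0.0941 for Ccng2, 0.142 for Ms4a4d and 0.15 for Eif1ad, each without APC-WT Dox replicate 1. Such a fit sets 2 arrays against 3, so a lost call does not mark 1 tumour as the source of a difference. Without APC-WT no Dox replicate 3, all 3 passed among 418 genes, of which 102 were higher (0.921%) and 316 lower (2.85%).

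**Figure D1:**
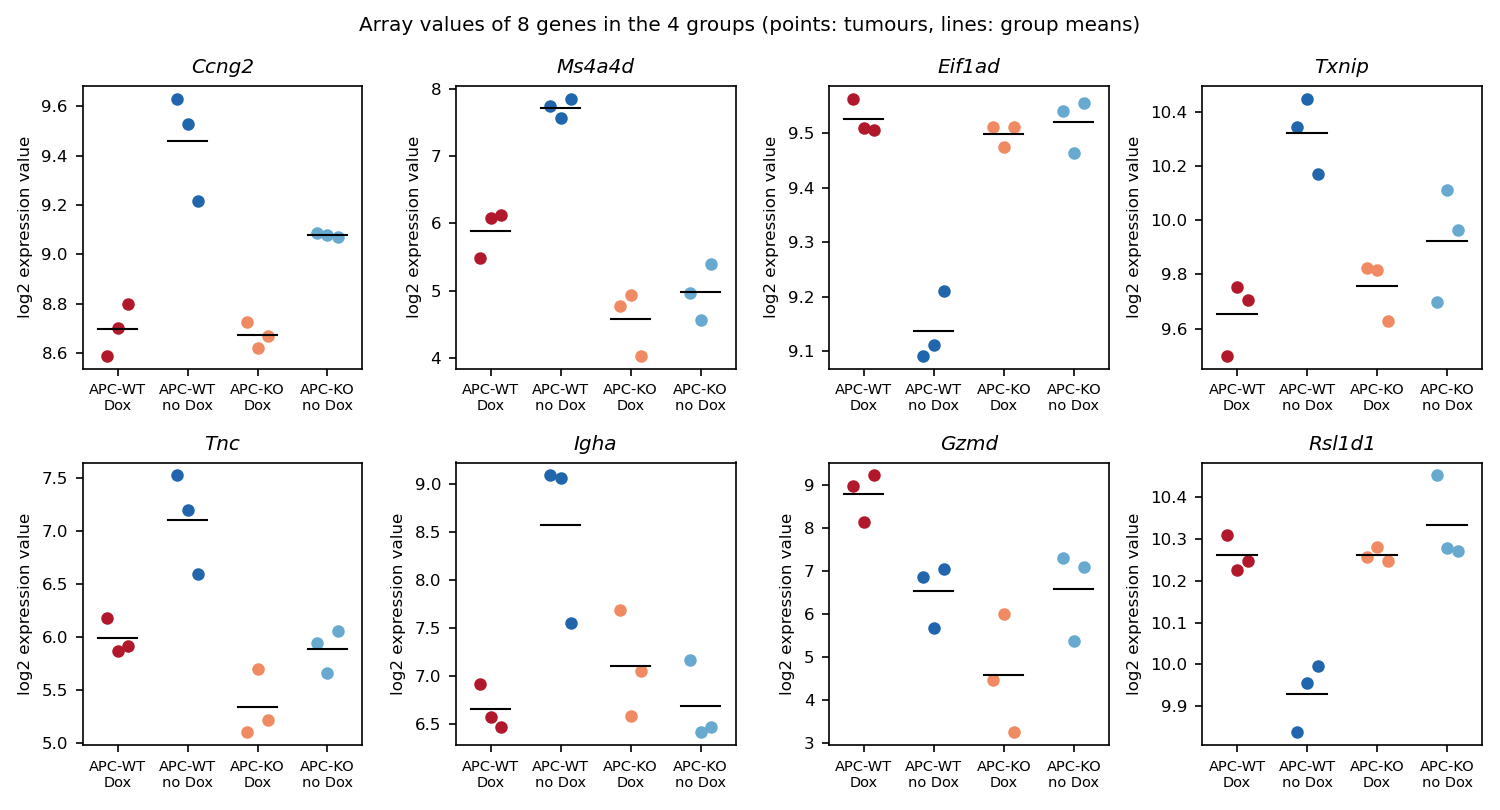
Log2 expression values of 8 genes on the 12 arrays, with APC-WT Dox, APC-WT no Dox, APC-KO Dox and APC-KO no Dox from left to right (points are tumours, lines are means of 3). The APC-WT groups do not overlap in any panel, and no Dox replicate 3, the right point of its group, lies nearest to the Dox values in every panel but that of Ms4a4d.

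The genes next in order of p with separate groups were not called. Among those lower with Dox, Txnip encodes the thioredoxin-interacting protein, which restrains glucose uptake and is a known target of MondoA. It was at 9.50, 9.76 and 9.71 with Dox and 10.34, 10.45 and 10.17 without (-0.67 ± 0.10, limma adjusted p = 0.0532), and its second probe set gave -0.53. The Wnt receptor gene Fzd6 (-0.35 ± 0.06), the ubiquitin ligase gene Wwp2 (-0.38 ± 0.07), the TGF-beta-activating integrin gene Itgb8 (-0.84 ± 0.15) and Crebrf, a regulator of CREB3 (-0.72 ± 0.13), all had an adjusted p of 0.0786. Isg20, an interferon-induced RNA exonuclease (-0.49 ± 0.09), Tmem140 (-0.65 ± 0.12), the chloride channel gene Clic5 (-0.79 ± 0.15), the matrix gene Tnc and the antibody gene Igha followed at 0.0817. In all of them the highest Dox array lay below the lowest no Dox array. Probe sets disagreed for Wwp2, where another gave -0.081 with overlapping groups.

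Of the genes higher with Dox, 4 of the next 11 by p with separate groups make ribosomes, namely Rrp1b, Rsl1d1, Bysl and Rrs1. The others were Socs5, a suppressor of cytokine signalling (0.33 ± 0.06, limma adjusted p = 0.0845), and, at an adjusted p of 0.105, the lysozyme gene Lyz1, the ER stress protein gene Serp1, the myo-inositol transporter gene Slc5a3, the mitochondrial tRNA methyltransferase gene Trmt10c, the glycosylation gene Alg3 and the TBP regulator gene Btaf1. The probe set used for Lyz1 was the brightest of these, at 13.61, 13.64 and 13.64 with Dox and 13.49, 13.40 and 13.48 without. Its difference was small, 0.17 ± 0.04, beside a spread within groups of at most 0.05 (SD, n = 3). Another probe set of Socs5 (0.216) and one of Btaf1 (0.042) had overlapping groups. A further probe set of Lyz1 lay under the floor, at a mean of 3.584 over all arrays, and its groups overlapped. Whether the bright probe sets of Lyz1 read RNA of its near copy Lyz2 was not tested.

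**Figure D2:**
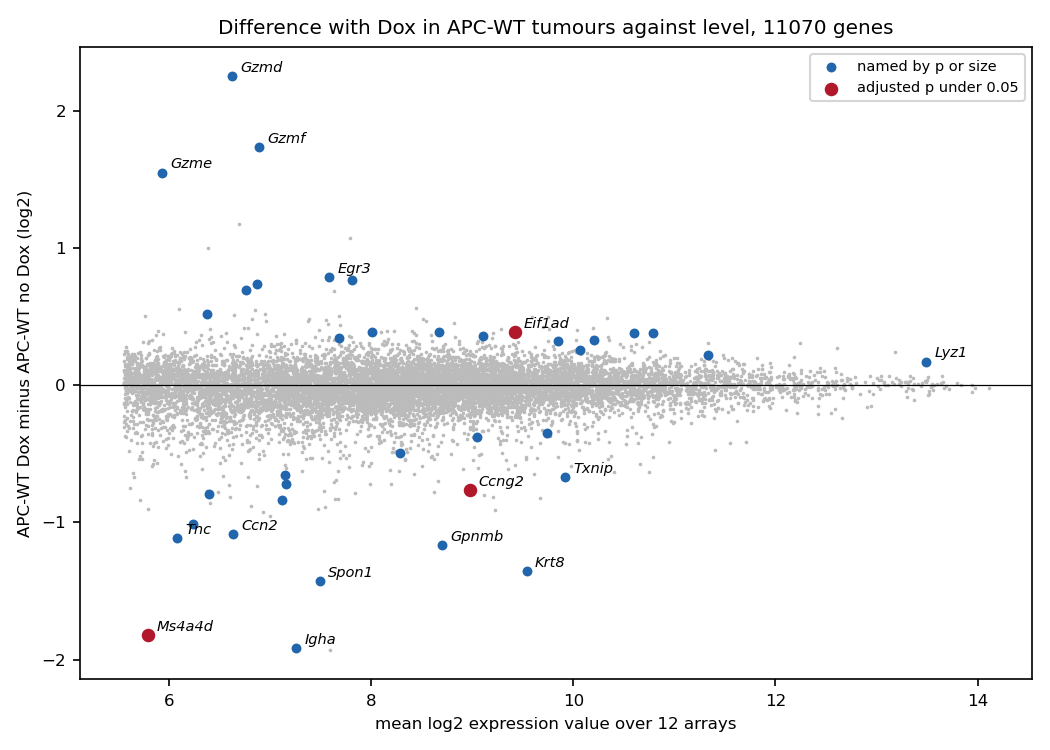
Difference between APC-WT Dox and APC-WT no Dox (log2, vertical) against the mean log2 value over 12 arrays (horizontal) for 11070 genes, with genes named by p or size in blue and those past the threshold in red. The 3 red genes lie at 0.39, -0.76 and -1.82.

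Interferon-stimulated genes code for antiviral enzymes and sensors that rise together when interferon binds its receptor. Of the 46 genes listed, 40 had a probe set and all 40 were tested. This list and the others were drawn up with earlier results of these data known, so their counts are a description. All 40 had a difference below 0 in APC-WT tumours, with a median of -0.49 beside -0.008 for all genes. None passed the test, the smallest adjusted p being 0.105. At an unadjusted p under 0.05, 36 were lower (9.03% of all genes were), and for 35 the groups did not overlap (10.3% of all genes lower in that way). The mean over the 40 genes was 8.95, 9.17 and 9.27 on the Dox arrays and 9.79, 9.50 and 9.59 on the no Dox arrays. No Dox replicate 3 stayed with its group here, and without it the median was -0.49 and 5 members passed (Dhx58, Samhd1, Stat2, Ifi35 and Trim25). In a fit to the 6 APC-WT arrays alone, another 5 passed (Irf7, Ifi27l2a, Oas2, Cmpk2 and Lgals3bp).

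The factors that carry the signal were among them. Stat2, a subunit of ISGF3, was at 7.02, 7.10 and 7.34 with Dox and 7.96, 7.67 and 7.64 without (-0.60 ± 0.14, limma adjusted p = 0.105). Irf7, the factor that amplifies interferon production, was at 8.79, 9.01 and 9.11 with Dox and 9.92, 9.75 and 9.69 without (-0.81 ± 0.25). Every Dox tumour lay below every no Dox tumour for both genes and for Irf9 (-0.47 ± 0.13), the DNA-binding subunit of ISGF3.

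Of the cytoplasmic RNA sensors, Dhx58 (LGP2) was at 7.50, 7.76 and 7.78 with Dox and 8.73, 8.39 and 8.27 without (-0.78 ± 0.17, limma adjusted p = 0.105). Ifih1 (MDA5), whose promoter is printed above, had a difference of -0.54 ± 0.14. Antiviral effectors lay in the same range: the 5 genes of 2-5A synthetases and their relatives between -0.72 and -0.48, the 3 IFIT genes between -0.65 and -0.41, and Mx1 and Mx2 at -0.63 and -0.26. Samhd1, which depletes nucleotides, had a difference of -0.35 ± 0.08, and its 4 other probe sets over the floor gave -0.206 to -0.103, with overlap in 3. Ifi35 had a difference of -0.38 ± 0.09. The list ran from -0.91 ± 0.25 for Ifi27l2a to -0.12 ± 0.07 for Eif2ak2, the gene of the kinase PKR.

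The 5 members whose groups overlapped were Zbp1, Igtp, Gbp7, Iigp1 and Gbp2, and the last 4 encode interferon-inducible GTPases that act on vacuoles of intracellular microbes. Iigp1 was at 9.96, 10.48 and 10.68 with Dox and 10.95, 10.46 and 10.97 without, so that no Dox replicate 2 fell inside the Dox range. Over the 7 GTPase genes of the list, a group formed after their values were seen, the median difference was -0.35 in APC-WT tumours, against -0.31 in APC-KO tumours. The 5 synthetase genes had medians of -0.57 and 0.16 in the same order, and the 3 factors Stat2, Irf7 and Irf9 had -0.60 and 0.05. These family medians were not tested.

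In APC-KO tumours the median of the 40 genes was 0.02, with 21 above 0. The test of the difference between genotypes (interaction, APC-WT minus APC-KO) gave a median of -0.44 for the list. For 23 members it had an unadjusted p under 0.05 with the lower difference in APC-WT (6.24% of all genes). No gene passed the interaction after adjustment (limma), and 1312 genes (11.9%) had an unadjusted p under 0.05.

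**Figure D3:**
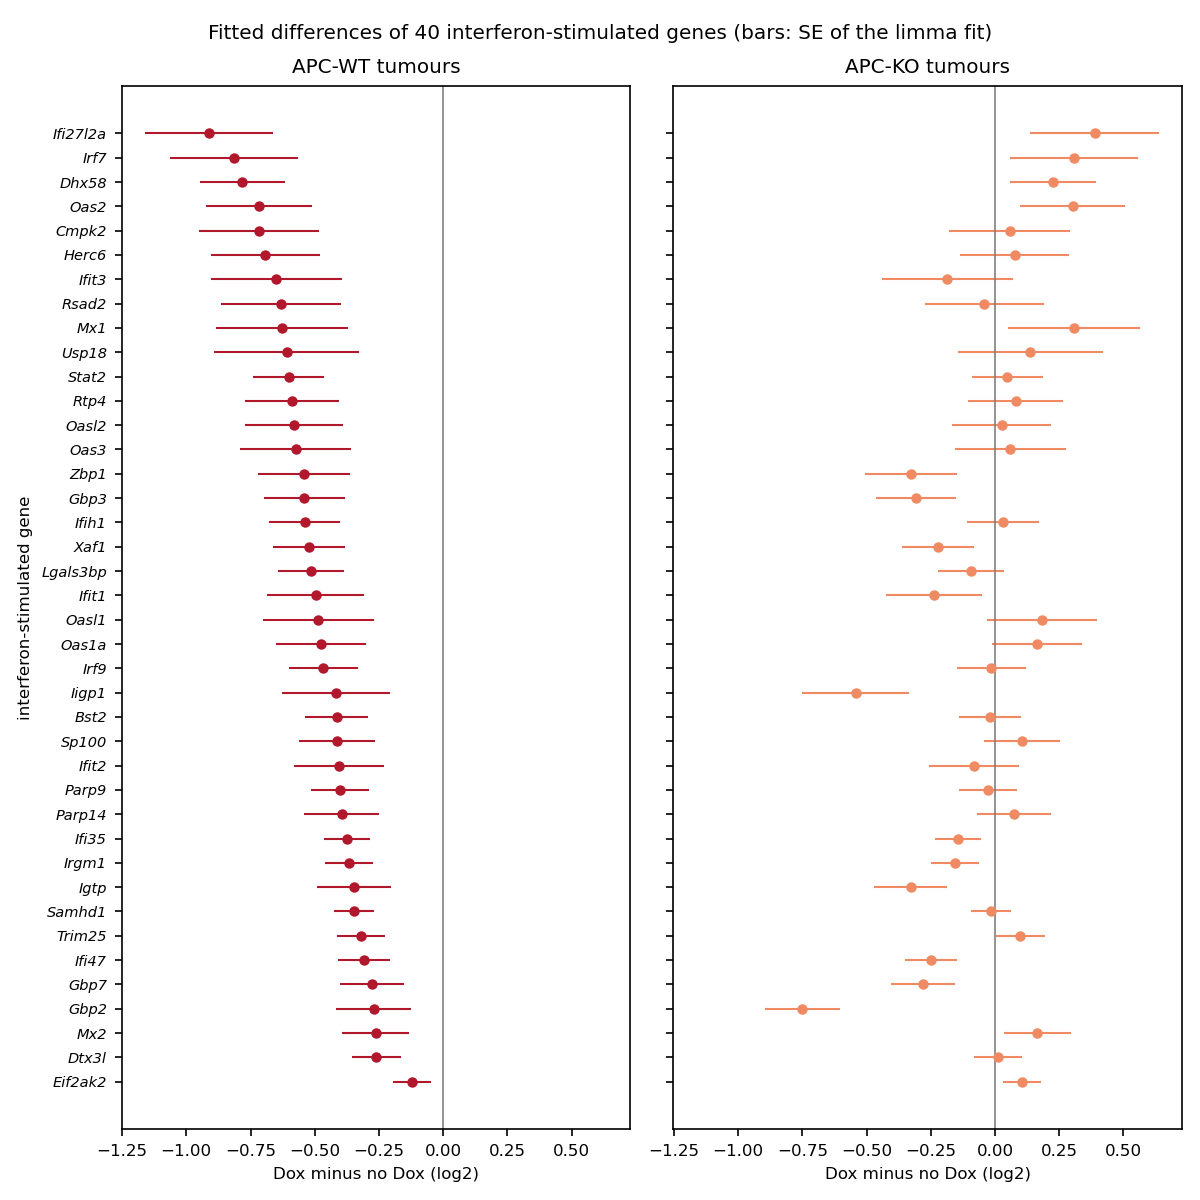
Difference between Dox and no Dox (log2, horizontal) for 40 interferon-stimulated genes (rows), with APC-WT tumours on the left and APC-KO tumours on the right (bars are the SE of the limma fit). All 40 points lie below 0 on the left and 21 lie above 0 on the right, where Gbp2 is the lowest at -0.75.

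Genes upstream of the response were mixed. Of 18 receptor, kinase and sensor genes tested, 5 lay above 0, 13 below, and none passed. The groups did not overlap for 3 higher genes (11% of all genes) and 2 lower ones, Tlr3 and Jak2 (10.3%). The 3 higher were the receptor chains Ifnar1, Ifnar2 and Ifngr2 (0.17 ± 0.07, 0.11 ± 0.07 and 0.14 ± 0.06). All 3 genes lie on chromosome 16, as do Rsl1d1, Slc5a3, Trmt10c and Alg3 of the higher genes above. The part of location was not tested. Ifnar1, a chain of the type I interferon receptor, was at 8.31, 8.24 and 8.27 with Dox and 8.23, 8.07 and 8.00 without. Lower values came from Tlr3, the endosomal sensor of double-stranded RNA (-0.40 ± 0.14), and the kinases Jak1 (-0.17 ± 0.07) and Jak2 (-0.20 ± 0.08). Antigen presentation genes, many of them also interferon targets, lay below 0 for all 19 members with a median of -0.15, which ran from -0.259 without no Dox replicate 2 to -0.059 without no Dox replicate 1 and -0.053 without Dox replicate 1. An unadjusted p under 0.05 was reached by 3 (9.03% of all genes were lower in that way): Tapbp (-0.21 ± 0.06), Tap1 (-0.31 ± 0.11) and Nlrc5 (-0.32 ± 0.12).

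Genes of ribosome assembly lay on the higher side. The nucleolus is where ribosomal RNA is made and packed, and 35 of 40 such genes lay above 0 with a median of 0.16. For 24 of them the groups did not overlap, all higher (11% of all genes did so), and 20 had an unadjusted p under 0.05 and were higher (6.47% of all genes), while none was lower in either count. None passed the test, but without no Dox replicate 3 the median was 0.21 and 9 were called higher. The list was drawn up with earlier results of these data known. It holds Rrp1b, Rsl1d1, Bysl and Rrs1, named above for their small p, so its counts are a description.

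Rrp1b, an rRNA processing factor, was at 9.21, 9.22 and 9.15 with Dox and 8.76, 8.84 and 8.91 without (0.36 ± 0.06, limma adjusted p = 0.0786). Rsl1d1, a nucleolar protein, was at 10.31, 10.23 and 10.25 with Dox and 9.84, 9.96 and 10.00 without (0.33 ± 0.06). Each group was narrow, and no Dox replicate 3 was the highest of its group. Bysl, needed for the small subunit, and Rrs1, needed for the large one, had differences of 0.39 ± 0.07 and 0.38 ± 0.08. A second probe set of Bysl gave 0.49, while 2 other probe sets of Rrp1b gave 0.108 and 0.095, with overlapping groups. Tcof1, the cofactor of rDNA transcription, was the lowest of the list at -0.10 ± 0.13. The other genes below 0 were the nucleolar protein genes Npm1 (-0.031), Fbl (-0.014) and Ncl (-0.01) and the RNA polymerase I gene Polr1a (-0.008). For all 5 the groups overlapped. The mean over the 40 genes was 9.76, 9.68 and 9.70 on the Dox arrays and 9.55, 9.54 and 9.58 on the no Dox arrays. In APC-KO tumours the median was 0.06. The E-box CACGTG was present in 10 of 34 promoters of the list (29.41%) and in 11.88% of tested genes. Its share was also 6 of 24 (25%) in the FOXO-linked list, which lay on the lower side, and 4 of 21 (19.05%) in the cholesterol list.

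Other biosynthetic lists leaned the same way with smaller or less even values. Of 30 genes of the mitochondrial ribosome and its translation, 24 lay above 0, 10 had separate groups and were higher (11% of all genes), and 4 had an unadjusted p under 0.05 and were higher (6.47%). Mrps12 (0.21 ± 0.06) and the elongation factor gene Tufm (0.21 ± 0.07) led them, while Mrps9 had -0.22 ± 0.08. Hspd1, the mitochondrial chaperonin HSP60, was at 12.25, 12.18 and 12.20 with Dox and 12.01, 11.97 and 12.04 without, with no overlap. Of 18 ER chaperone genes, 11 lay above 0 and 7 below. Their median was 0.08, and between 0.012 and 0.131 with 1 array left out. The groups did not overlap for 4 higher (11% of all genes) and 1 lower (10.3%). At an unadjusted p under 0.05, 6 were higher (6.47% of all genes), among them Xbp1, the factor of the unfolded protein response (0.18 ± 0.06), and Creld2 (0.27 ± 0.10).

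Cholesterol and fatty acid synthesis had a median of 0.20, with 24 of 27 genes above 0 and 5 at an unadjusted p under 0.05, all higher (6.47% of all genes). Hsd17b7, a late step of the pathway, was at 7.76, 7.73 and 7.77 with Dox and 7.54, 6.96 and 7.33 without. The mevalonate genes Mvk (0.30 ± 0.12) and Mvd (0.31 ± 0.13) and the lanosterol demethylase gene Cyp51 (0.45 ± 0.20) were lowest on no Dox replicate 2, and the median of the list was 0.03 without that array. Of 23 genes of the ATF4 response to amino acid shortage, 10 had separate groups and were higher (11% of all genes), and 1 was lower (10.3%). Psph, the last step of serine synthesis, was at 9.99, 9.84 and 9.76 with Dox and 9.45, 9.22 and 9.43 without (0.49 ± 0.14), and Psat1 of the same path had 0.35 ± 0.12. Nupr1, a stress-induced chromatin protein, went against them at 10.18, 10.38 and 10.21 with Dox and 10.65, 10.59 and 10.57 without. Cth, which makes cysteine from cystathionine, was among the widest higher values of all genes at 0.77 ± 0.20.

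**Figure D4:**
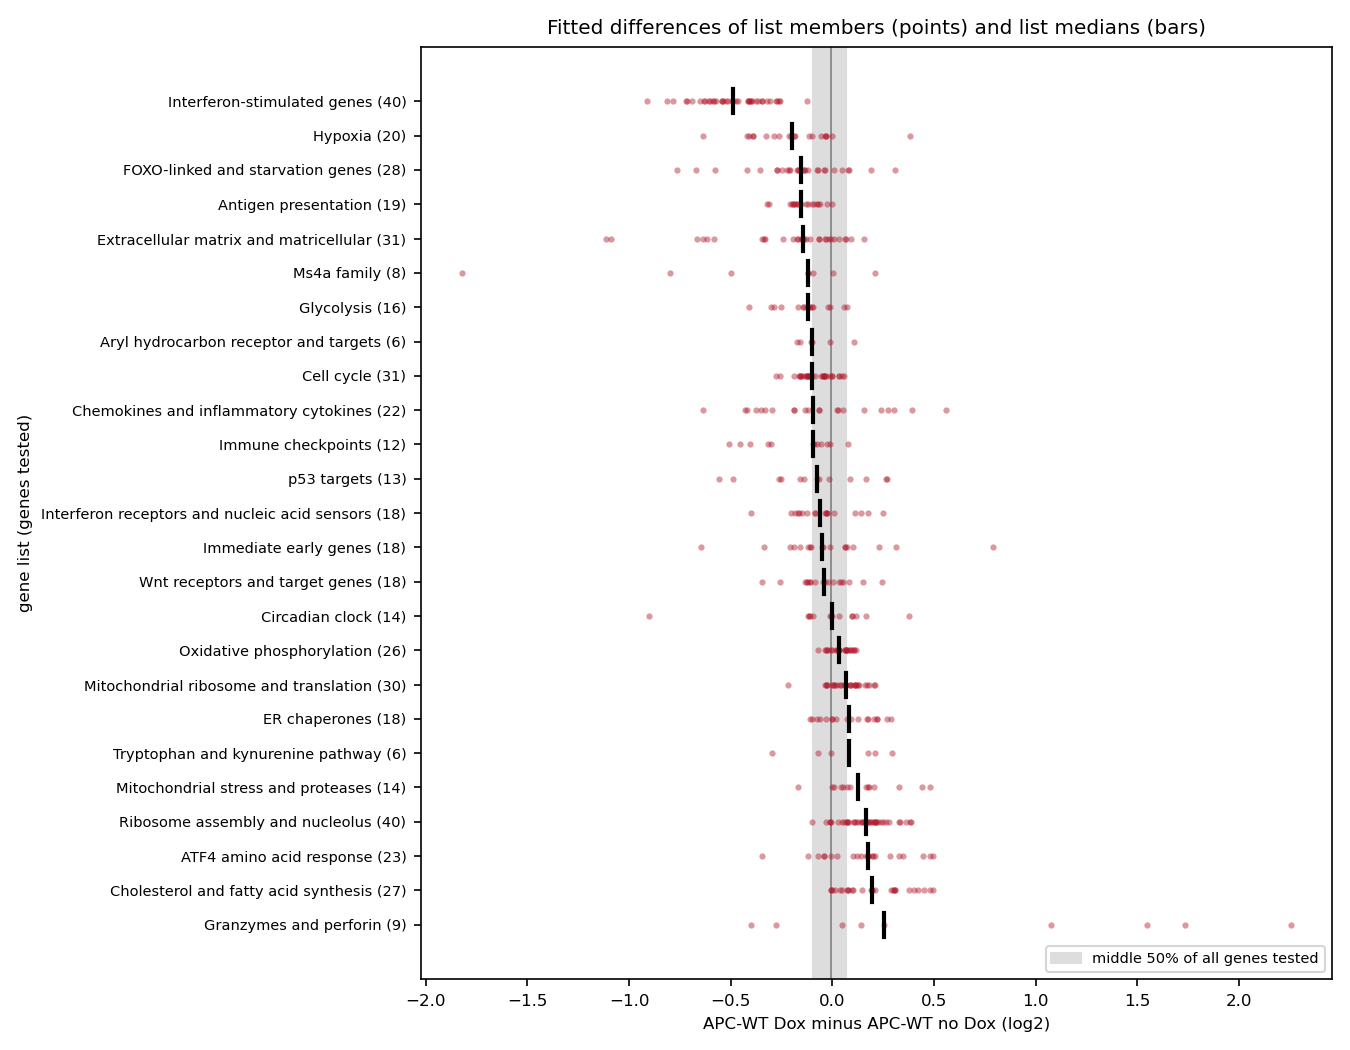
Difference between APC-WT Dox and APC-WT no Dox (log2, horizontal) for the tested members of 25 pathway lists (points) with the list medians (black bars), over the range that holds the middle 50% of all genes (grey, -0.10 to 0.07). Interferon-stimulated genes lie lowest with a median of -0.49, and granzymes highest with a median of 0.26 that spans values between -0.40 and 2.25, and that was 0.159 without no Dox replicate 3 and 0.135 to 0.632 over all single arrays left out.

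FOXO proteins switch on target genes when growth factor signals are low. The list of genes linked to FOXO factors and starvation held such targets beside other genes, such as Txnip and the Foxo genes themselves. Its median was -0.16, with 22 of 28 below 0. Ccng2 passed, 10 were lower (9.03% of all genes) and 1 was higher (6.47%) at an unadjusted p under 0.05. Fbxo32 (atrogin-1), a classical FOXO target of muscle, was at 5.81, 5.85 and 5.95 with Dox and 6.67, 6.62 and 6.06 without (-0.58 ± 0.14), and no Dox replicate 3 lay close to the Dox values. Rbl2, the pocket protein p130, had -0.27 ± 0.08, and Sesn1, a sestrin, was the exception at 0.31 ± 0.09. Without no Dox replicate 3 the median was -0.20 and 8 members were called lower. This list too was drawn up with earlier results known and holds Ccng2 and Txnip, named above for their small p. Its counts are therefore a description.

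Cell cycle genes lay slightly lower, with 27 of 31 below 0, a median of -0.10, and 7 lower at an unadjusted p under 0.05 (9.03% of all genes). The kinetochore genes Cenpf (-0.28 ± 0.07) and Cenpe (-0.26 ± 0.10), the nucleotide reductase gene Rrm2 (-0.16 ± 0.05) and Top2a (-0.16 ± 0.07) were the 4 of smallest p. Cenpe was at 9.60, 9.62 and 9.68 with Dox and 10.04, 10.04 and 9.60 without, so that no Dox replicate 3 lay with the Dox arrays. In APC-KO tumours the median was 0.13 with 30 of 31 above 0. The interaction had an unadjusted p under 0.05 for 17 genes, all with the lower difference in APC-WT (6.24% of all genes). The p53 targets were split, with Trp53inp1 at -0.56 ± 0.16 and the NOXA gene Pmaip1 at -0.49 ± 0.15, against Zmat3 at 0.26 ± 0.08 and Aen at 0.27 ± 0.09.

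The 18 immediate early genes tested had a median of -0.05, with 7 above 0 and 11 below, and a median of 0.031 without no Dox replicate 3. At an unadjusted p under 0.05, 3 were lower (9.03% of all genes) and 2 higher (6.47%). The 14 circadian clock genes tested had a median of -0.004, with 1 lower and 1 higher at that p. Some members of these lists had low values. Per1, a clock gene that glucocorticoids induce, was at 7.14, 6.99 and 7.23 with Dox and 7.86, 8.63 and 7.59 without (-0.90 ± 0.19). The phosphatase gene Dusp1 (-0.65 ± 0.16) and the factor gene Klf4 (-0.33 ± 0.07) had separate groups as well. Egr3, an early growth response factor, had the opposite sign at 8.41, 7.92 and 7.75 with Dox and 7.65, 6.56 and 7.50 without, where no Dox replicate 2 was far below the others.

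Matrix and matricellular genes had a median of -0.14, with 25 of 31 below 0, and one of -0.081 without no Dox replicate 1. At an unadjusted p under 0.05, 7 were lower (9.03% of all genes) and none higher (6.47%). Tnc, tenascin C of remodelling stroma, was at 6.18, 5.87 and 5.92 with Dox and 7.52, 7.20 and 6.59 without (-1.12 ± 0.21, limma adjusted p = 0.0817). Ccn2 (connective tissue growth factor), a target of YAP and TGF-beta, was at 5.77, 5.83 and 5.78 with Dox and 6.75, 7.62 and 6.29 without (-1.09 ± 0.23). The Dox arrays of both genes lay close to the floor and close to each other, while the no Dox arrays spread widely. The collagen I genes Col1a1 (-0.33 ± 0.09) and Col1a2 (-0.24 ± 0.07) had smaller differences. The 12 fibroblast markers had mean levels of 9.27, 9.34 and 9.33 with Dox and 9.63, 9.57 and 9.30 without, a median difference of -0.14, and their part in the matrix values was not tested.

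Other wide lower values were those of Spon1, an F-spondin, at 6.45, 6.90 and 6.65 with Dox and 8.70, 7.94 and 7.65 without (-1.43 ± 0.27), and Gpnmb, a glycoprotein of lysosome-rich macrophages (-1.17 ± 0.26). The keratin gene Krt8 was at 9.59, 9.35 and 9.47 with Dox and 11.65, 10.70 and 10.12 without (-1.35 ± 0.41). The Dox tumours were alike and the no Dox tumours were not. Cdh1 (E-cadherin), with all Dox arrays under the floor, was at 5.19, 4.89 and 5.31 with Dox and 6.17, 5.79 and 5.68 without. Its mean over all arrays reached the floor only through the APC-WT no Dox group, whose mean was 5.879. Only 4 of 20 markers of normal cecal epithelium were tested, 2 above 0 and 2 below, with values from -1.352 to 0.191. The groups did not overlap for 1 higher marker (11% of all genes) and for Krt8 and Cdh1, both lower (10.3%). Muc2, Vil1 and Krt20 lay under the floor on every array of the comparison. Dkk3, a Dickkopf-related secreted protein, had -1.01 ± 0.42.

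The widest higher values with separate groups came from a run of granzyme genes. Granzymes are serine proteases of killer lymphocytes, and Gzmb to Gzmg lie in 1 cluster on mouse chromosome 14. Gzmd was at 9.00, 8.14 and 9.23 with Dox and 6.87, 5.68 and 7.05 without (2.25 ± 0.62, limma adjusted p = 0.139). Gzmf was at 8.95, 7.91 and 9.15 with Dox and 6.80, 6.36 and 7.64 without, and Gzme had a difference of 1.55 ± 0.38. In each the lowest Dox array lay above the highest no Dox array, and replicate 2 was the lowest of both groups. The mean of Gzme over all arrays, 5.929, lay over the floor because of the APC-WT Dox group, whose mean was 7.408. The means of Gzme were 5.86 in APC-WT no Dox, 4.716 in APC-KO Dox and 5.732 in APC-KO no Dox. The group that made the difference thus also brought Gzme into the test.

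Gzmg, which was not tested because its mean lay under the floor, was at 7.81, 6.54 and 7.94 with Dox and at 4.01, 4.52 and 4.81 without. With all no Dox arrays under the floor it was at least 3.67-fold higher with Dox, as the mean with Dox over the floor. These genes are near-identical copies, and their probe sets may read each other's RNA. Gzmc of the same cluster was at 8.73, 8.05 and 8.44 with Dox and 8.17, 6.54 and 7.29 without (1.07 ± 0.47), and its groups overlapped. The median of the 9 granzyme and perforin genes tested was 0.26, but 0.159 without no Dox replicate 3, 0.135 without no Dox replicate 2 and 0.632 without no Dox replicate 1. Gzmb was at 8.67, 8.61 and 8.88 with Dox and 9.51, 8.68 and 9.16 without, and the perforin gene Prf1 and Gzma had differences of 0.05 ± 0.19 and 0.26 ± 0.26. In APC-KO tumours Gzmd, Gzmf and Gzme differed the other way, by -2.02, -1.648 and -1.015, with overlapping groups and Dox means under the floor. Their interactions were 4.27 ± 0.88, 3.38 ± 0.73 and 2.56 ± 0.54 (limma adjusted p = 0.149, 0.167 and 0.149).

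Marker levels of the cells that make granzymes were not higher with Dox. The 12 T cell markers tested had means of 6.63, 6.85 and 6.90 with Dox and 7.06, 6.92 and 7.23 without, a median difference of -0.32. For 7 of them the groups did not overlap, all lower (10.3% of all genes), among them Cd3e (-0.27 ± 0.10), Cd8b1 (-0.47 ± 0.20), Cd6 (-0.36 ± 0.11) and the costimulator Icos (-0.46 ± 0.13). The 5 NK cell markers tested had means of 7.09, 7.17 and 7.10 with Dox and 7.55, 6.98 and 7.23 without, which overlapped. Ccl5, a chemokine of activated T cells, was at 10.31, 10.74 and 10.79 with Dox and 11.29, 10.98 and 11.47 without (-0.64 ± 0.19). The part of T cells in these values and in those of the interferon-stimulated genes was not tested.

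Myeloid marker lists had different medians, and none of their members passed the test. The 15 macrophage and monocyte markers tested had a median of 0.01, with 8 above 0. Only 3 of 12 neutrophil markers were tested (S100a8, S100a9 and Csf3r), all above 0 with a median of 1.0. They ran from 0.057 for Csf3r to 1.173 for S100a9. That median was 1.435 without no Dox replicate 3, 0.282 without no Dox replicate 1 and 0.5 without Dox replicate 3, and the groups overlapped for all 3. Of the 6 dendritic cell markers tested 5 lay below 0, with a median of -0.28, and of -0.121 without no Dox replicate 1. Bst2 is among these 6 and is also on the interferon-stimulated list. The lysozyme gene Lyz2 (0.24 ± 0.06), a near copy of Lyz1, and the macrophage gene Adgre1 (0.18 ± 0.07) lay on the higher side, and Ccr2, the receptor of recruited monocytes (-0.45 ± 0.17), and the cathepsin gene Ctsb (-0.09 ± 0.04) on the lower. Csf1, the macrophage growth factor, had 0.24 ± 0.07. The interleukins Il15 (-0.37 ± 0.11) and Il18 (-0.35 ± 0.11), and Tnfrsf18 (GITR) of activated lymphocytes (-0.51 ± 0.13), were lower on every Dox array than on any no Dox array. Gpr84, a receptor of activated myeloid cells, had 0.52 ± 0.19, the sialic acid enzyme gene Npl 0.69 ± 0.20 and the imprinted gene Phlda2 0.74 ± 0.25.

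Igha, the heavy chain of IgA, was at 6.92, 6.58 and 6.47 with Dox and 9.09, 9.07 and 7.55 without (-1.92 ± 0.36, limma adjusted p = 0.0817). The high values came from no Dox replicates 1 and 2. Jchain, the joining chain of secreted IgA that marks plasma cells, was not tested, and it was at 4.65, 4.83 and 4.12 with Dox and 6.42, 6.53 and 4.38 without. It was thus over the floor on the 2 arrays on which Igha was highest. Of the other B lineage markers, 2 were tested, and their mean was 7.49, 7.76 and 7.47 with Dox and 7.71, 7.55 and 7.40 without.

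Hypoxia and glycolysis genes, which HIF1 switches on when oxygen is short, had medians of -0.20 over 20 genes and -0.12 over 16. Without no Dox replicate 3 these were -0.125 and -0.052, and without no Dox replicate 2 that of glycolysis was -0.184. Pdk1, which holds pyruvate back from mitochondria, was at 8.90, 9.15 and 9.22 with Dox and 9.49, 9.44 and 9.58 without (-0.41 ± 0.11). The demethylase gene Kdm3a had -0.26 ± 0.09 and the phosphofructokinase gene Pfkp -0.30 ± 0.09, while the angiogenic factor gene Vegfa lay on the other side at 0.38 ± 0.17. In APC-KO tumours the medians were -0.54 and -0.42. The interaction had an unadjusted p under 0.05 for 10 genes of each list, each with the higher difference in APC-WT (5.61% of all genes). Of the tryptophan pathway, 6 genes were tested: Kyat3, a kynurenine aminotransferase, had 0.30 ± 0.09, the formamidase gene Afmid -0.30 ± 0.10 and the amino acid transporter subunit Slc3a2 0.21 ± 0.09.

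Beside the APC-KO tumours, the called genes read as follows. Ccng2 differed by -0.41 in APC-KO, against -0.76 in APC-WT, and the interaction was -0.36 ± 0.13 (limma adjusted p = 0.322). Eif1ad differed by -0.02 in APC-KO tumours, where its 6 values lay between 9.46 and 9.56, and the interaction was 0.41 ± 0.07 (adjusted p = 0.129). Ms4a4d was under the floor on all 6 APC-KO arrays. The Dox arrays of APC-WT tumours thus lay about where the APC-KO arrays did for Eif1ad, and the low arrays were those of APC-WT without Dox. Over all 11070 genes, 136 (1.23%) had separate groups in both genotypes with opposite directions, and 12 of the genes named here were among them.

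The genes of smallest interaction p with a higher difference in APC-WT were S100a8, Slc2a1, H2ac19 and S100a9, and none of them had separate groups in APC-WT. In APC-KO tumours they differed by -4.066, -1.225, -0.784 and -4.301 in the same order. The neutrophil genes S100a8 and S100a9 varied most: S100a8 was at 6.32, 6.05 and 7.68 with Dox and 4.25, 6.25 and 6.55 without. The glucose transporter gene Slc2a1 had -0.11 ± 0.14 and the histone gene H2ac19 0.20 ± 0.13. Those with a lower difference in APC-WT were the cadherin gene Cdh26 (-0.54 ± 0.14), Arhgap11a (-0.13 ± 0.07), the kinase gene Frk (-0.43 ± 0.09) and Serpinf1, which encodes the antiangiogenic factor PEDF (-0.21 ± 0.15). In APC-KO tumours these genes differed by 0.477, 0.328, 0.21 and 0.777 in the same order. Cdh26 was at 7.39, 7.44 and 7.53 with Dox and 8.17, 7.97 and 7.83 without, with no overlap.

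**Figure D5:**
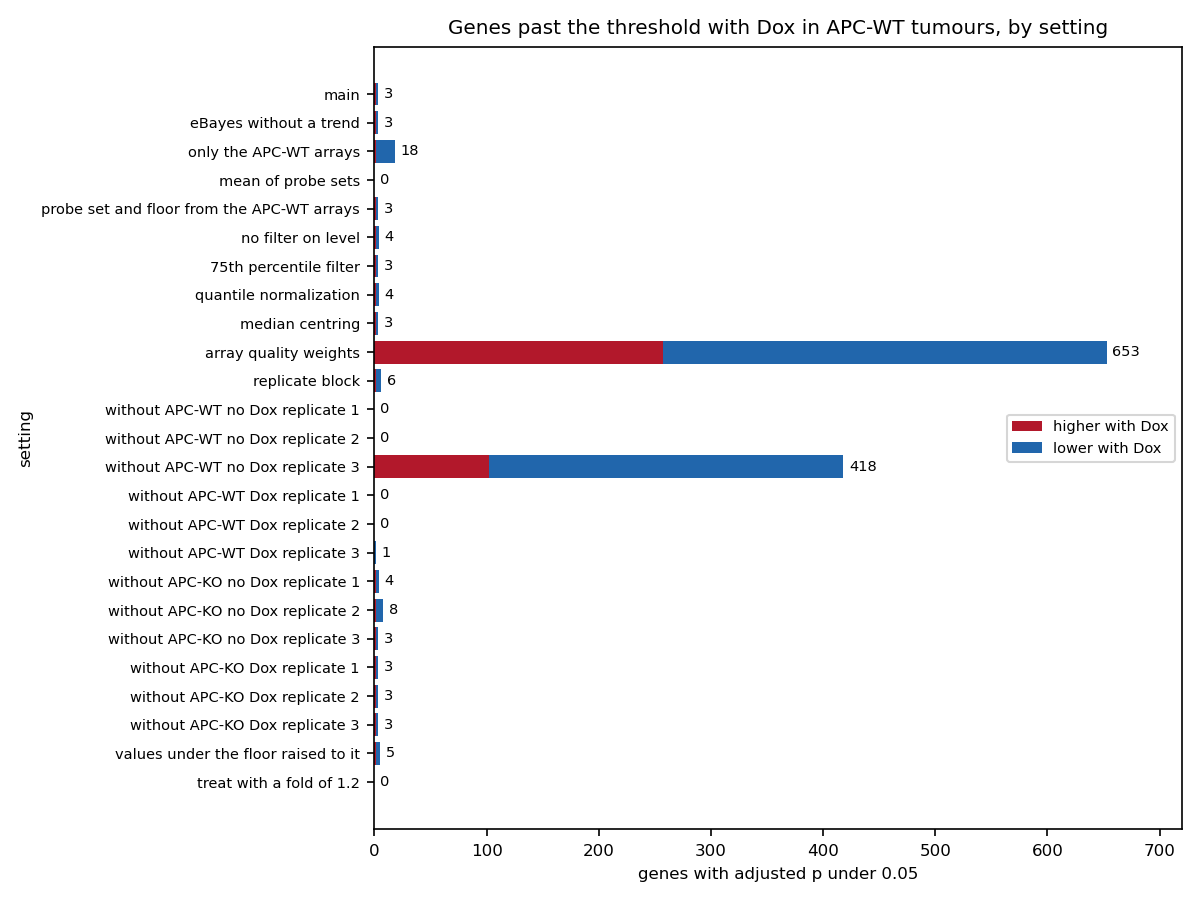
Number of genes past an adjusted p of 0.05 with Dox in APC-WT tumours (horizontal) under each setting (rows), split into higher (red) and lower (blue) with Dox. The count is 3 as reported, 418 without APC-WT no Dox replicate 3, 653 with array quality weights, and 0 in each of 6 settings.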

How the data were processed

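Affymetrix arrays had been run on 12 tumours (4 groups of 3). The authors deposited log2 expression values, made with MAS5 per the submitters' processing notes, with no version; their handling of background and scale was not given in the sources used here. Of 45101 probe sets, 64 were controls and 34945 named 1 gene symbol. Symbols were updated through Entrez identifiers, and 34741 of these probe sets matched. A gene was represented by its probe set of highest mean, and tested where that mean reached the median over probe sets other than controls (log2 5.55), a filter and not a measured background; no detection calls were used. Of 18193 genes, 7123 lay under it. A group-means model was fitted with limma 3.58.1 (eBayes with a trend) in R 4.3.3, with 2-sided tests; the fit was tested on simulated data. Lists are described by counts and medians, with no test of their own. The genes, lists and tests were chosen with earlier results of these data known. Named were Tdo2, Apc, the genes past the threshold, the 12 of smallest p and 8 of largest difference in each direction with separate groups, up to 4 of smallest p for each list described with 1 of opposite direction, and 4 of smallest interaction p in each direction. All other genes were named after their values were seen. Promoters came from RefSeq (GRCm38.p6). The number of arrays limits the precision.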

Additional observations from a re-analysis of the deposited data

Results flagged for a closer look

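In 12 of the 136 named genes, many of them chosen for separate groups in APC-WT tumours, the Dox and no Dox arrays did not overlap in either genotype, with the difference running 1 way in APC-WT tumours and the other way in APC-KO tumours. Over all 11070 tested genes, 136 (1.23%) had that pattern, and since the named genes were chosen on the same values, their count is a description. None of their interactions (APC-WT minus APC-KO) passed after adjustment in limma, where the smallest adjusted p over all genes was 0.129. Higher with Dox in APC-WT and lower in APC-KO were Lyz1 (interaction 0.27), Lyz2 (0.38), Serp1 (0.35), Ifngr2 (0.27), Zmat3 (0.52), Csf1 (0.41) and the respiratory chain gene Ndufb5 (0.22). Lower with Dox in APC-WT and higher in APC-KO were Arhgap11a (-0.46), Frk (-0.64), Rbl2 (-0.46), Col1a1 (-0.49) and Icos (-0.80). Lyz1 had a difference of 0.17 in APC-WT tumours, against -0.10 in APC-KO tumours. Lyz1 and Lyz2 are near copies, and reads of 1 by the probe set of the other were not tested.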

How the results depend on the processing

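The count of 3 genes past the threshold was 18 with the 6 APC-WT arrays alone, 0 with the mean of probe sets, 653 with array quality weights, 5 with values under the floor raised to it and 0 against a fold of 1.2, and it stayed within 1.5 times of 3 under the other settings that kept all arrays, apart from the replicate block. Leaving out 1 array at a time gave 0 to 418 genes, with 418 when the omitted array was replicate 3 of APC-WT no Dox. The count was 0 when replicate 1 or 2 of either APC-WT group was omitted, 1 when it was replicate 3 of APC-WT Dox, and 8 when it was replicate 2 of APC-KO no Dox. The count of 0 for the interaction was 13 with array quality weights, 1 with values under the floor raised to it, and 0 to 119 with 1 array left out. With the replicate number as a block, 6 genes passed, but the numbers do not pair the tumours: same-numbered arrays correlated between -0.22 and 0.18 in their deviations, and 6 of 18 correlated best with their own number. Slc2a1 (-0.11) had 0.019 with array quality weights, and between -0.249 and 0.042 with 1 array left out, the upper end with APC-WT no Dox replicate 3 omitted, and the cause was not tested. Of 3194 values of named genes under these settings, 3025 kept direction and side of the threshold, 147 came past it, 20 (of the 3 called genes) lost it, and the 2 of Slc2a1 changed sign. Without APC-WT no Dox replicate 3, 56 of the 136 named genes passed. Tests of genes near the floor are limited by signal, and the arrays differ in weight, between 0.49 and 3.86 in APC-WT.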
